A study of Mus musculus with 6 samples.

Results

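Fatty acids reach a liver cell in several steps, and the genes described here code for the proteins of those steps. Cd36 codes for a scavenger receptor that takes up long-chain fatty acids at the cell surface, and the Slc27a genes code for the fatty acid transport proteins (FATPs), which take up fatty acids and couple them to coenzyme A. The Fabp genes code for fatty acid binding proteins (FABPs), small carriers that hold fatty acids inside the cell. Lpl codes for lipoprotein lipase, which releases fatty acids from circulating triglyceride, and Vldlr codes for the very low density lipoprotein receptor. Healthy hepatocytes make much Fabp1 and Slc27a2 and little Cd36 or Lpl, and Cd36 is known to be more abundant in fatty liver.

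The 10 genes Cd36, Fabp1, Fabp2, Fabp4, Fabp5, Fabp7, Slc27a2, Slc27a4, Lpl and Vldlr were taken by symbol from a table of 52459 genes, and all 10 were among the 17032 genes that passed the filter on low counts. Bulk RNA-Seq had been done on whole livers of 6 male mice, 3 in each group. All mice were Alb-Cre/Cas9 F1 animals on a C57BL6J background, in which the albumin promoter drives Cre, and so Cas9, in hepatocytes. They received an AAV8 virus carrying a control guide RNA (sgCtrl; mice 5.1, 7.1 and 7.2) or a guide against the peroxiredoxin gene Prdx2 (sgPrdx2; mice 1.1, 1.3 and 3.2), and both groups were then given the liver carcinogen diethylnitrosamine (DEN) at 100 mg/kg and fed the CDA-HFD, a high-fat diet that lacks choline and has defined amino acids, for 6 months. The virus was injected at 4 to 5 weeks of age, DEN was given 3 weeks later, and the diet began 1 week after DEN. The livers were collected at 8 months of age. Editing was limited to hepatocytes that took up the virus, so each liver held edited hepatocytes, hepatocytes the virus did not reach and other cells.

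The libraries held 37462102 to 56865293 counts. Levels are given as normalized CPM, counts per 1000000 counts of a library after trimmed-mean (TMM) scaling over all tested genes, and differences as log2 fold changes of sgPrdx2 over sgCtrl with standard errors (SE), n = 3 livers per group. Tests were edgeR quasi-likelihood tests with Benjamini-Hochberg adjustment over all tested genes, and a gene was called at an adjusted p under 0.05. Prdx2 itself was at 109, 117 and 132 CPM in sgCtrl livers and 99.0, 112 and 149 CPM in sgPrdx2 livers (log2 fold change 0.01, edgeR adjusted p = 0.983). The amount of Prdx2 transcript thus did not separate the labelled groups, and a guide that cuts DNA need not lower it. Liver 3.2 stood apart on the first principal component, which carried 50.1% of the variance: it scored 44.3, the other sgPrdx2 livers 10.2 and 17.2, and the sgCtrl livers -30.9 to -19.0.

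One feature of sequence touches these results. A RefSeq promoter window of 300 bases (GRCm38.p6; 250 before and 50 after the start) was given for 7 of the 10 genes, not for Fabp4, Fabp5 or Lpl. Each was searched on both strands for the response element of the PPAR nuclear receptors, the fatty acid sensors known to control many of these genes, as 2 copies of AGGNCA with 1 base between them. The Fabp1 window held it, on the strand opposite to the gene at chr6:71199812-71199824, from 67 to 55 bases before the RefSeq start. The stretch that holds it, chr6:71199629-71199826 on the plus strand, ends where the first annotated exon begins and is shown with the motif in capitals:
Fabp1: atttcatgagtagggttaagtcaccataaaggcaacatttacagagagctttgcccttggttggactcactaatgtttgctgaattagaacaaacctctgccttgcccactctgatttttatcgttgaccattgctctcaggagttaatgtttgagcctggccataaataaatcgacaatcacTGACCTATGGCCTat
The windows of the 6 other genes did not hold these letters. Of all windows, 0.381% (125 of 32851) held them. A match describes the sequence and does not show that a factor binds there.

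None of the 10 genes was called in either direction by edgeR, against 1.79% of all tested genes called higher in sgPrdx2 livers and 1.54% called lower. The unadjusted p was under 0.05 for 4 of the 10 (Cd36, Slc27a2, Fabp1 and Fabp5), and for 24.9% of all tested genes (4241 of 17032). Leaving out 1 liver made it 3 to 6 of the 10, with 6 without liver 3.2. DESeq2, run as an alternative, called 3 of the 10: Fabp1 and Slc27a2 higher and Cd36 lower, beside 7.63% of the 15276 genes it tested called higher and 5.81% called lower. The fitted log2 fold change was positive for 4 genes and negative for 6, with a median of -0.28 beside -0.02 over all tested genes. That median was -0.05 without liver 7.2, -0.11 without 5.1, -0.43 without 7.1 and, with 2 genes positive and 8 negative, -0.62 with housekeeping scaling. The 3 sgPrdx2 values all lay above the 3 sgCtrl values for 2 genes, Fabp1 and Slc27a2, and all below for 1, Cd36. Over all tested genes such separation held for 16.7% upward and 17.5% downward, so these counts were near the background. Without liver 5.1, 7.2, 1.1 or 1.3 no gene of the whole table was called, so none of the calls given here held in those 4 fits.

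**Figure D1:**
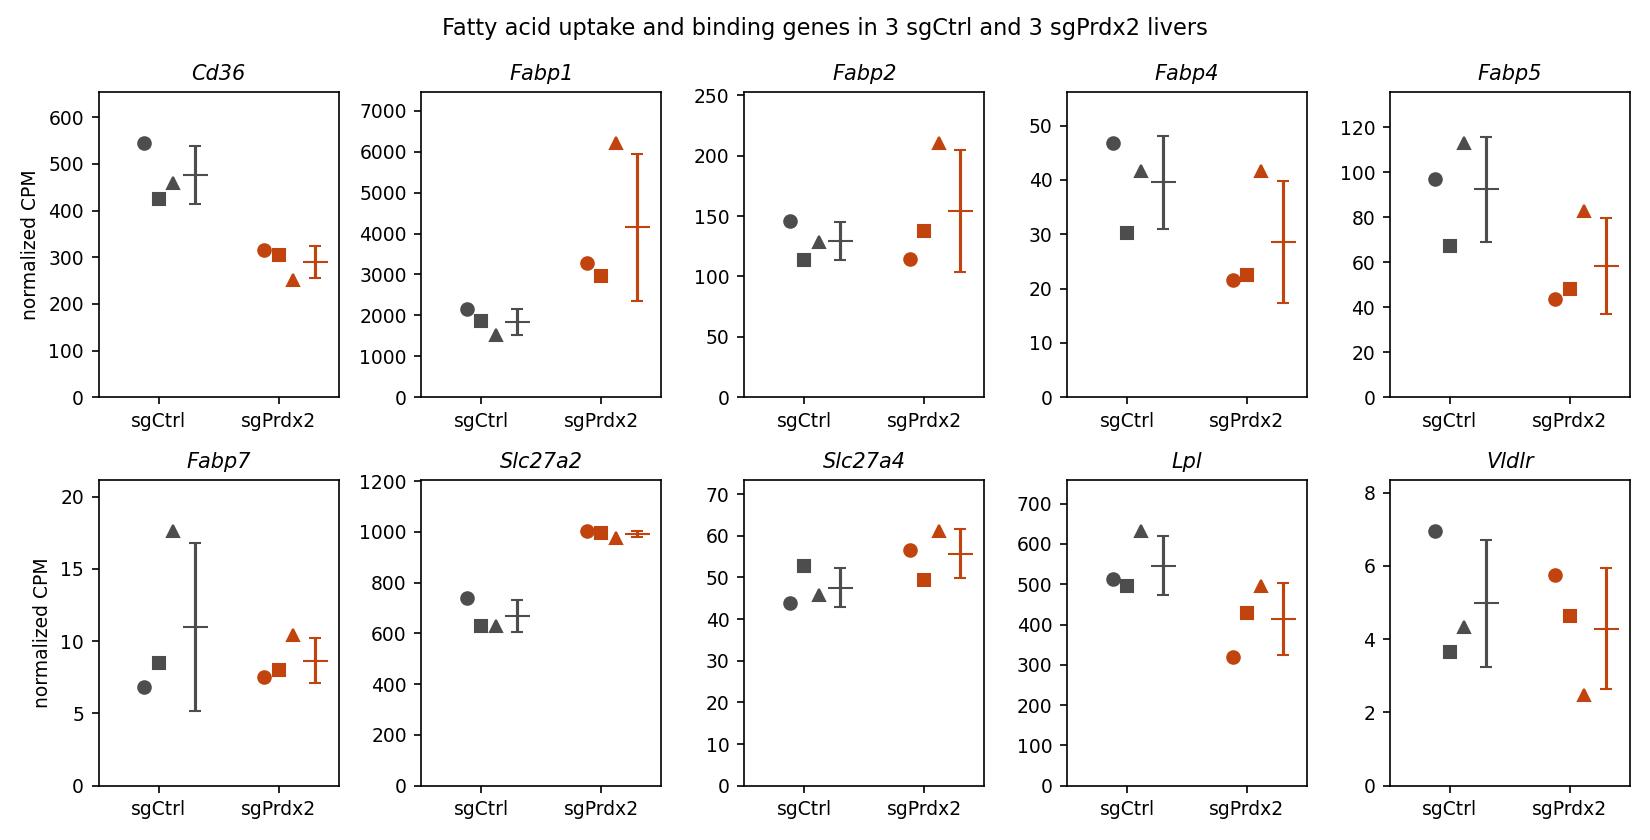
Normalized CPM (linear axes from 0, a separate scale for each gene) of the 10 genes in sgCtrl livers (gray; circle 5.1, square 7.1, triangle 7.2) and sgPrdx2 livers (orange; circle 1.1, square 1.3, triangle 3.2). Bars to the right of the points give the mean and SD; the groups are apart for Cd36, Fabp1 and Slc27a2 and overlap for the other 7 genes.

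Uptake at the cell surface was described by Cd36, Slc27a2 and Slc27a4. Cd36 (chr5:17781690-17888801, minus strand, GRCm38) was at 545, 425 and 460 CPM in sgCtrl livers and at 315, 305 and 252 CPM in sgPrdx2 livers. Every sgPrdx2 value was under the lowest sgCtrl value, and liver 3.2 was the lowest of the 6. The means were 477 ± 61.9 and 290.4 ± 33.8 CPM (SD, n = 3), a 1.64-fold lower fitted level (log2 fold change -0.72, SE 0.16) that missed the threshold with an edgeR adjusted p of 0.0555. The difference kept its sign in all 12 alternative fits, from -1.07 to -0.61, and the adjusted p ranged from 0.00125 with DESeq2 to 0.168 without sgCtrl liver 7.2. Adjusted p was also under 0.05 with no filter on low counts (0.0368) and with housekeeping scaling (0.0386), which moved the median of all genes to -0.38.

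Slc27a2 (chr2:126552407-126588243, plus strand), the very long chain acyl-CoA synthetase FATP2 of liver and kidney, went the other way. Its level was 741, 631 and 631 CPM in sgCtrl livers and 1002, 994 and 977 CPM in sgPrdx2 livers. The sgPrdx2 livers lay close together, at 991 ± 13.0 CPM, and above the sgCtrl livers at 667 ± 63.5 CPM (SD, n = 3). The fitted level was 1.49-fold higher (log2 fold change 0.57, SE 0.14, edgeR adjusted p = 0.0666), with alternatives from 0.20 under housekeeping scaling to 0.65. Its adjusted p was 0.000905 with DESeq2 and at most 0.404 over the alternatives. Exons of Slc27a2 overlap those of Gm26697 on the other strand, and 9.8% of the 50-base stretches of Slc27a2 are shared with it. Gm26697 had 2 to 10 counts per liver, against at least 28366 for Slc27a2. The strand setting of the counts is not given, so the Slc27a2 count may leave out reads of the overlap. Slc27a4 (chr2:29802634-29817522, plus strand), FATP4, which is found in many tissues, had 44.0, 52.8 and 45.9 CPM in sgCtrl livers and 56.6, 49.5 and 61.1 CPM in sgPrdx2 livers. The groups overlapped through livers 7.1 and 1.3 (log2 fold change 0.23, SE 0.14, edgeR adjusted p = 0.334), and the sign turned to -0.15 with housekeeping scaling.

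Within each liver, Slc27a2 and Cd36 counts gave a ratio that does not depend on the scaling between libraries. It was 1.36, 1.48 and 1.37 in sgCtrl livers and 3.19, 3.26 and 3.88 in sgPrdx2 livers. With Slc27a2 CPM higher and Cd36 CPM lower in every sgPrdx2 liver, the ratio had to separate the groups. The pair was set side by side after the values were seen, and the ratio is given without a test.

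The Slc27a family had 4 further genes, and Slc27a5, which codes for the liver FATP5 (bile acyl-CoA synthetase), was the 1 gene of the FABP and FATP families that passed the test. Slc27a5 had 203, 285 and 186 CPM in sgCtrl livers and 750, 556 and 590 CPM in sgPrdx2 livers, with no overlap (log2 fold change 1.49, SE 0.21, edgeR adjusted p = 0.0342). In the 4 fits without liver 5.1, 7.2, 1.1 or 1.3 it had an adjusted p of 0.118, 0.143, 0.142 and 0.0672 and a log2 fold change of 1.35 to 1.60. Slc27a1, the FATP1 of muscle and fat, was at -0.39 (SE 0.18, edgeR adjusted p = 0.231), Slc27a3 at 0.00 (SE 0.23, adjusted p = 0.998) and Slc27a6, with under 1.7 CPM in each liver, at -0.86 (SE 0.51, adjusted p = 0.330).

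Divided by the length of the principal transcript, the 6 Slc27a genes could be set against each other. Slc27a2 made up 58.4 to 67.2% of the summed CPM per kb of the family in sgCtrl livers and 49.1 to 55.8% in sgPrdx2 livers, although its own CPM was higher there. Slc27a5 made up 23.5 to 33.6% and 39.8 to 46.9%. Slc27a4 held 2.87 to 3.52% and 2.00 to 2.41%, and Slc27a1 4.04 to 6.04% and 1.78 to 2.52%. For each of these 4 genes the 2 ranges did not touch, but shares of one sum move together. The count ratio of Slc27a5 to Slc27a2 was 0.274 to 0.451 in sgCtrl livers and 0.559 to 0.748 in sgPrdx2 livers.

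**Figure D2:**
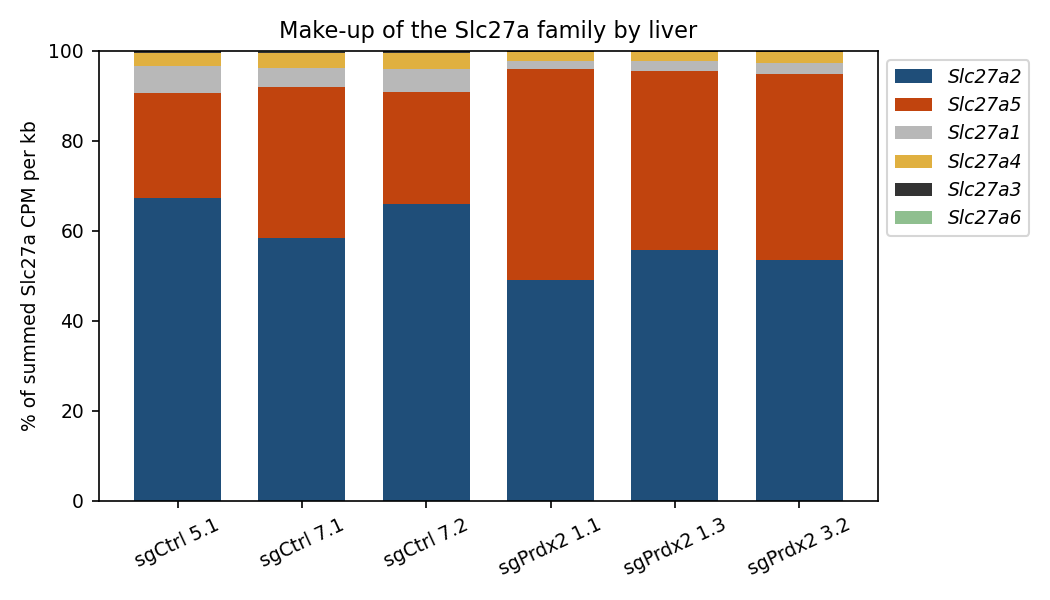
Share of each gene (stacked bars, % of the summed CPM per kb of principal transcript over the 6 Slc27a genes) in each of the 6 livers. Slc27a2 is the largest share in every liver, and Slc27a5 is at 23.5 to 33.6% in the sgCtrl group and 39.8 to 46.9% in the sgPrdx2 group.

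Among the intracellular carriers, Fabp1 (chr6:71199827-71205023, plus strand), the liver FABP, had by far the highest level. It was at 2150, 1855 and 1510 CPM in sgCtrl livers and 3273, 2956 and 6217 CPM in sgPrdx2 livers. All sgPrdx2 livers exceeded all sgCtrl livers, and liver 3.2 was far above the other two. The means were 1838 ± 320.2 and 4149 ± 1798 CPM (SD, n = 3), and the fitted level was 2.26-fold higher (log2 fold change 1.17, SE 0.30), with an edgeR adjusted p of 0.0722. Without liver 3.2 the log2 fold change was 0.77 (SE 0.19, edgeR adjusted p = 0.0716), and over the alternatives it ran from 0.74 to 1.39 with adjusted p from 0.00127 (DESeq2) to 0.211.

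Fabp2 (chr3:122895072-122899506, plus strand), the intestinal FABP, was measured at 145, 114 and 128 CPM in sgCtrl livers and 115, 137 and 211 CPM in sgPrdx2 livers. The groups overlapped, and only liver 3.2 was above every sgCtrl liver (log2 fold change 0.25, SE 0.23, edgeR adjusted p = 0.524). The sign turned without liver 3.2 (-0.03) and with housekeeping scaling (-0.16). Of 10 enterocyte markers, Sis, Alpi and Cdx2 had no count in any liver and 8 were too low to test. The other two were measured: Vil1 was at 7.58 to 12.4 CPM, and Krt20 was at 0.387 to 3.18 CPM in 5 livers and at 12.3 CPM in liver 7.2.

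Fabp4 and Fabp5 code for the FABPs of adipocytes and macrophages and of epidermis and macrophages, and they lie near each other on chromosome 3 (Fabp4 at chr3:10204088-10208576, minus strand; Fabp5 at chr3:10012548-10016607, plus strand). Fabp4 was at 46.8, 30.1 and 41.6 CPM in sgCtrl livers and 21.6, 22.5 and 41.6 CPM in sgPrdx2 livers, where liver 3.2 reached the sgCtrl range and the other two lay below it (log2 fold change -0.47, SE 0.28, edgeR adjusted p = 0.332). It was -0.83 without liver 3.2 (edgeR adjusted p = 0.0608) and -0.30 without 1.1. Fabp5 was at 97.2, 67.1 and 113 CPM in sgCtrl livers and 43.8, 48.3 and 82.7 CPM in sgPrdx2 livers. The same liver, 3.2, overlapped the sgCtrl range (log2 fold change -0.67, SE 0.28, edgeR adjusted p = 0.194), and without it the value was -0.996 (edgeR adjusted p = 0.0608). The Fabp4 to Fabp5 count ratio was 0.368 to 0.481 in sgCtrl livers and 0.467 to 0.503 in sgPrdx2 livers. These ranges overlapped, and liver 7.2 had the lowest ratio. Fabp5 shared 5.48% of its 50-base stretches with 4 near-copies, of which Gm14328 had the most counts (69 to 176 per liver, against at least 1921 for Fabp5), so reads may be split between them.

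Fabp7 (chr10:57784881-57788450, plus strand), the FABP of the nervous system, was low, at 6.81, 8.52 and 17.6 CPM in sgCtrl livers and 7.50, 8.03 and 10.4 CPM in sgPrdx2 livers. Liver 7.2 was high among the sgCtrl livers, and without it the sign turned from -0.35 (SE 0.34, edgeR adjusted p = 0.556) to 0.17. Fabp3, the heart FABP, was under 0.6 CPM in each liver (log2 fold change -0.53, SE 0.35, edgeR adjusted p = 0.383) and shared 37.3% of its 50-base stretches with other genes. Fabp12 was at -0.82 (SE 0.59, edgeR adjusted p = 0.420). Fabp6 and Fabp9, with 2 counts each over the 6 livers, were not tested; 3 counts in a liver correspond to 0.0555 to 0.0921 CPM.

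As shares of the summed FABP level per kb, Fabp1 held 89.6 to 93.6% in sgCtrl livers and 95.9 to 96.9% in sgPrdx2 livers. Fabp5 held 1.90 to 3.76% and 0.722 to 0.878%, Fabp4 0.938 to 1.52% and 0.394 to 0.451%, and Fabp2 3.29 to 4.37% and 1.88 to 2.55%. The count ratio of Fabp1 to Fabp5 was 13.4 to 27.7 in sgCtrl livers and 61.2 to 75.1 in sgPrdx2 livers, and that of Fabp1 to Fabp4 was 36.3 to 61.6 and 131 to 152. Neither ratio overlapped between the groups. Fabp1 CPM alone already separated the groups, and it enters every share and ratio here. In liver 3.2 Fabp4 and Fabp5 lay within the sgCtrl range. Its ratios stood apart through Fabp1, at 6217 CPM, so they add nothing beyond the Fabp1 level there. These ratios were chosen after the values were seen and carry no test.

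**Figure D3:**
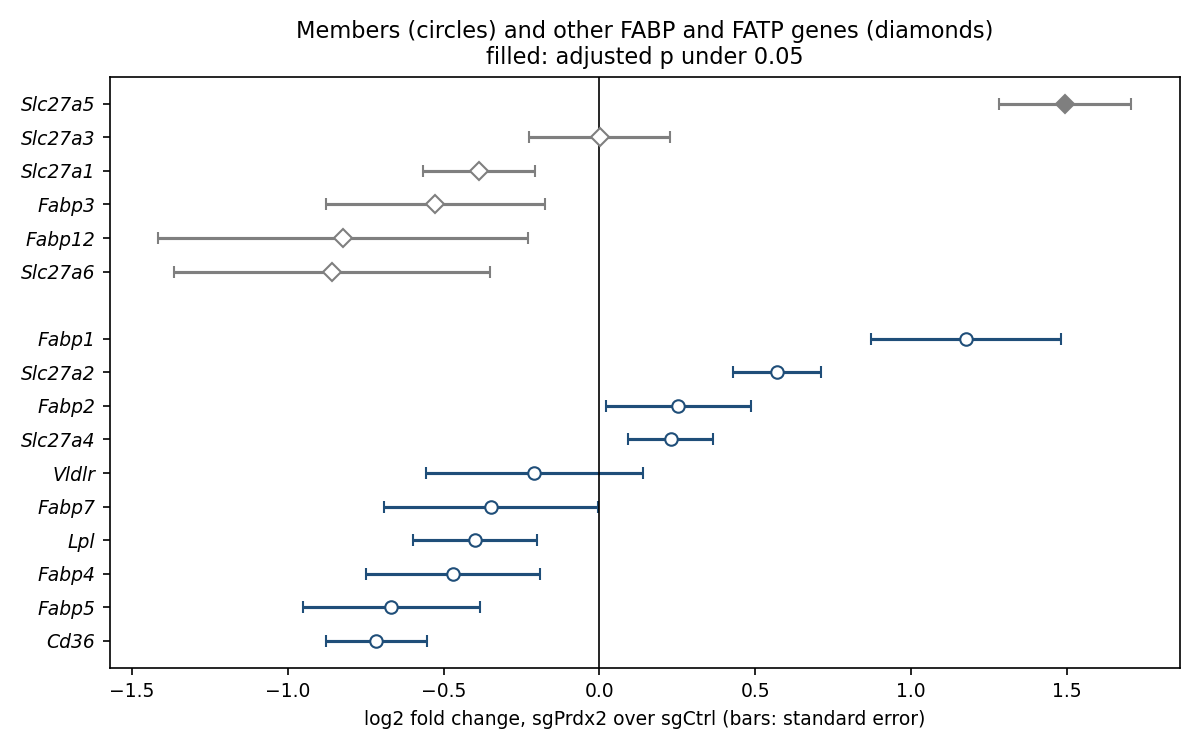
Log2 fold change of sgPrdx2 over sgCtrl with its standard error (x axis) for the 10 genes (circles) and the 6 other tested FABP and FATP genes (diamonds). Filled symbols passed an edgeR adjusted p under 0.05; only Slc27a5, at 1.49, is filled.

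Lpl and Vldlr act on lipoproteins outside the cell and at its surface. Lpl (chr8:68880491-68907448, plus strand) was at 512, 495 and 631 CPM in sgCtrl livers and at 319, 428 and 496 CPM in sgPrdx2 livers. Livers 3.2 and 7.1 were almost level, and the other sgPrdx2 livers were below all sgCtrl livers (log2 fold change -0.40, SE 0.20, edgeR adjusted p = 0.254), and the value was -0.24 without liver 1.1. Vldlr (chr19:27216484-27254231, plus strand) had 6.94, 3.65 and 4.34 CPM in sgCtrl livers and 5.74, 4.62 and 2.49 CPM in sgPrdx2 livers, where the ranges overlapped in part, with liver 3.2 the lowest and liver 5.1 the highest (log2 fold change -0.21, SE 0.35, edgeR adjusted p = 0.735). Its sign turned without liver 5.1 (0.11) or liver 3.2 (0.07).

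Per kb of principal transcript, the order of the 10 genes in sgCtrl livers began with Fabp1 at 3324 ± 579.1 CPM per kb and Slc27a2 at 229 ± 21.8 (SD, n = 3). Cd36 at 140.3 ± 18.2, Fabp2 at 134 ± 16.4 and Lpl at 133 ± 18.0 followed and did not differ beyond their spread. Fabp5 came next at 93.7 ± 23.7, then Fabp4 at 44.1 ± 9.52, and Fabp7 at 13.7 ± 7.21 was level with Slc27a4 at 11.7 ± 1.15. Vldlr was the lowest at 0.624 ± 0.218. In sgPrdx2 livers Fabp1 was at 7502 ± 3252 CPM per kb and Slc27a2 at 340 ± 4.47, while Cd36, at 85.4 ± 9.95, stood behind Fabp2 (160 ± 52.0) and Lpl (101 ± 21.7), and Cd36 and Lpl were within each other's spread. The place of Cd36 depended on the length used: over all annotated exons it was at 133 and 80.9 CPM per kb, and Lpl at 52.1 and 39.5. Slc27a5, not among the 10, went from 98.1 to 276 CPM per kb.

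Cell type markers moved between the groups as well. In whole liver, fewer cells of a type and less RNA per cell cannot be told apart. All 10 hepatocyte markers had a positive fold change and 3 were called higher (beside 1.79% of all genes, and 1.54% for lower calls in the lists that follow), against 8 and 1 with housekeeping scaling (smallest p: Ttr, the thyroid hormone carrier transthyretin, 1.35, SE 0.24, edgeR adjusted p = 0.0394), and their summed level ran from 68575 to 75697 CPM in the sgCtrl group and from 117091 to 151920 CPM in the sgPrdx2 group. All 17 macrophage markers had a negative one, 4 of them called lower (smallest p: Gpnmb, a glycoprotein of lipid-laden macrophages, -1.08, SE 0.18, edgeR adjusted p = 0.0373), with sums of 6193 to 7315 and 4208 to 5239 CPM. Both sums separated the groups. Most of the hepatocyte sum was Alb, at 58815 to 62569 CPM in sgCtrl livers and 97610 to 128017 CPM in sgPrdx2 livers. The macrophage direction rested in part on sgCtrl liver 7.2: without it 5 of the 17 were positive, and without 7.1 or 3.2 1 was positive and 2 or 7 were called, while all 10 hepatocyte markers stayed positive without any 1 liver. The Kupffer cell marker Timd4 was low in every liver, at 0.183 to 1.08 CPM. Of 14 endothelial markers 13 were negative and 1 was called lower (Pecam1, a junction protein of vessels, -0.77, SE 0.15, edgeR adjusted p = 0.0423), with sums of 579 to 606 and 460 to 540 CPM. Of 12 stellate cell and fibroblast markers 10 were negative and 0 called by edgeR (8 with unadjusted p under 0.05, 5 called by DESeq2; Rgs5 had the smallest p, log2 fold change -0.62, edgeR adjusted p = 0.0574), with sums of 2436 to 2792 and 1775 to 1851 CPM. Of 8 cholangiocyte markers 7 were negative and 0 called (4 with unadjusted p under 0.05, 2 called by DESeq2; Spp1 had the smallest p, -0.46, edgeR adjusted p = 0.117), with sums of 1704 to 1927 and 1281 to 1463 CPM. Most of that sum was Spp1, which the macrophage list also holds, and the 7 others summed to 212 to 342 and 184 to 206 CPM. The 4 became 1 without liver 1.1 and 2 without 7.2 or 1.3. Of 10 lymphocyte markers 7 were negative and 1 was called lower (Cd8a, -0.84, SE 0.18, edgeR adjusted p = 0.0486), with sums of 97.8 to 116 and 61.5 to 83.3 CPM. Ptprc, a gene of all leukocytes, was at 58.6 to 71.1 and 26.7 to 44.4 CPM, and the 9 others summed to 32.7 to 44.7 and 33.8 to 38.9 CPM, which overlapped. Of 6 adipocyte markers tested, 5 were positive and 1 negative. Adrb3 (1.62, SE 0.25, edgeR adjusted p = 0.0358) and Lipe (0.70, SE 0.14, edgeR adjusted p = 0.0459) were called higher. Cidec went the other way (-0.95, SE 0.24, edgeR adjusted p = 0.0699), with every sgPrdx2 value below every sgCtrl value. DESeq2, housekeeping scaling, no filter on low counts and the fit without liver 3.2 each called 1 marker of this list lower. Adipoq, Plin1, Lep and Retn, which define adipocytes, had at most 1 count in any liver, and the adipocyte sums of 198 to 299 and 212 to 284 CPM overlapped. The Ttr, Pecam1 and Cd8a calls were also lost without liver 7.1, that of Cd8a without 3.2 as well (edgeR adjusted p = 0.0558, 0.0688, 0.0666 and 0.0620), and both adipocyte calls with housekeeping scaling. The 2 enterocyte markers tested were negative and not called (0 with unadjusted p under 0.05, 0 by DESeq2; Krt20 had the smaller p, -1.20, SE 1.03, edgeR adjusted p = 0.494).

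The members were also set against these sums, a scale added after the values were seen and given without a test. Fabp1, whose CPM separated the groups, was at 2.12 to 3.14 CPM per 100 CPM of hepatocyte markers in sgCtrl livers and 2.19 to 4.09 in sgPrdx2 livers, an overlap in which the highest value belonged to liver 3.2. Slc27a2 was at 0.834 to 1.08 and 0.643 to 0.849 per 100 CPM of the same markers, overlapping, with the lower values now in sgPrdx2 livers. Slc27a4 was at 0.0641 to 0.0697 and 0.0378 to 0.0423, lower in every sgPrdx2 liver on this scale. So were Cd36, Fabp2, Fabp4, Fabp5, Fabp7, Lpl and Vldlr, and the marker sum itself was higher in every sgPrdx2 liver. The share of all genes that were lower on this scale was not worked out. Most of this scale was Alb. Per 100 CPM of hepatocyte markers without Alb, Fabp1 (12.3 to 23.1 and 14.9 to 26.0) and Slc27a2 (4.81 to 7.95 and 4.09 to 5.11) also overlapped. Slc27a4 (0.372 to 0.472 and 0.254 to 0.257) was again lower in every sgPrdx2 liver. Fabp4, Fabp5, Fabp7, Lpl and Vldlr were lower there too, while Fabp2 overlapped. Cd36 is made by hepatocytes, macrophages and endothelial cells, so it was set against several sums. It was at 6.29 to 7.85 and 4.81 to 7.47 per 100 CPM of macrophage markers and at 15.2 to 22.4 and 14.2 to 17.4 per 100 CPM of stellate cell markers, overlapping in both. It stayed lower in every sgPrdx2 liver per 100 CPM of endothelial markers (70.1 to 94.1 and 54.8 to 59.4) and of hepatocyte markers (0.561 to 0.795 and 0.166 to 0.260). Against the hepatocyte markers without Alb, Cd36 was at 3.24 to 5.85 and 1.05 to 1.57, also lower. Per 100 CPM of macrophage markers, Fabp5 (1.08 to 1.55 and 1.04 to 1.58), Fabp4 (0.487 to 0.674 and 0.501 to 0.794) and Lpl (7.38 to 8.63 and 7.58 to 9.52) also overlapped. They overlapped as plain CPM and per 100 CPM of endothelial and of stellate cell markers as well, so the overlap was not particular to the macrophage scale. The part that cell makeup plays in the differences was not tested.

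**Figure D4:**
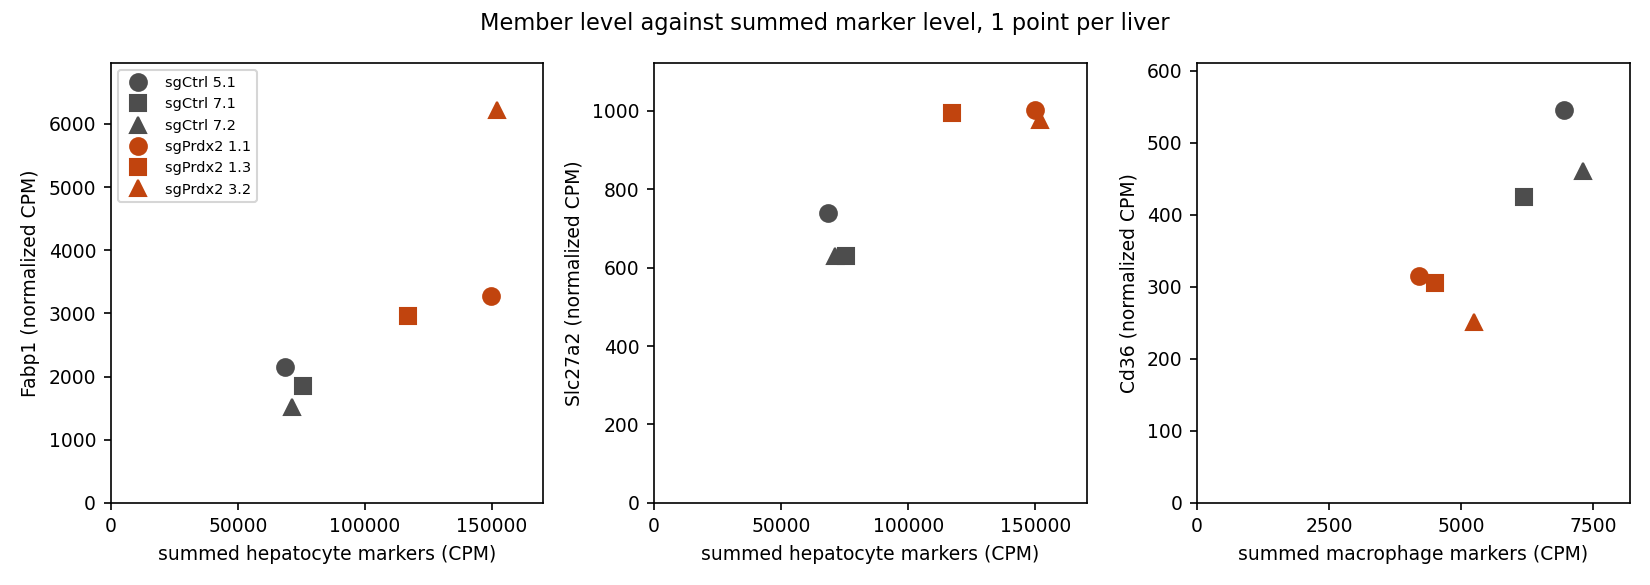
Normalized CPM of Fabp1 and Slc27a2 against the summed CPM of 10 hepatocyte markers, and of Cd36 against that of 17 macrophage markers, with 1 point per liver (gray sgCtrl, orange sgPrdx2; linear axes from 0). Marker sums separate the groups: 68575 to 75697 against 117091 to 151920 CPM for hepatocyte and 6193 to 7315 against 4208 to 5239 CPM for macrophage markers. Most of the hepatocyte sum is Alb.

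The pathway around these genes was described through lists of genes by role. Of 17 genes that control lipoprotein lipase or bind lipoproteins, 3 were called higher, beside 1.79% of all genes, and 0 lower, 13 were positive and 4 negative, and the median log2 fold change was 0.43; with housekeeping scaling 1 was called, 9 were positive and the median was 0.07. The 3 were apolipoproteins made by hepatocytes. Apoc3, which inhibits lipoprotein lipase, was at 469, 741 and 438 CPM in sgCtrl livers and 1476, 1110 and 1785 CPM in sgPrdx2 livers (log2 fold change 1.41, SE 0.26, edgeR adjusted p = 0.0409). Apoc1, which also restrains it, was at 1434, 2069 and 2211 CPM and 4388, 3872 and 6335 CPM (1.35, SE 0.25, adjusted p = 0.0409). Apoa5, which promotes lipoprotein lipase action, was at 821, 947 and 689 CPM and 1418, 1603 and 1941 CPM (1.01, SE 0.19, adjusted p = 0.0409). In all 3 the sgPrdx2 livers lay above the sgCtrl livers. Leaving out 1 liver ended the Apoc1 call for 5 of the 6 livers (all but 3.2), the Apoa5 call for 4 (5.1, 7.2, 1.1 and 1.3) and the Apoc3 call for 5 (all but 7.1), with edgeR adjusted p up to 0.157; with housekeeping scaling the Apoc3 and Apoa5 calls were lost as well (adjusted p = 0.0586 and 0.0758).

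The other lists had no gene called by edgeR, and their counts stand beside 24.9% of all genes with an unadjusted p under 0.05 and DESeq2 calls at 7.63% higher and 5.81% lower. Of 11 tested acyl-CoA synthetases and acyl-CoA binding proteins, which trap fatty acids in the cell, 10 were positive, 6 had an unadjusted p under 0.05 and DESeq2 called 4 (median 0.50; 6 positive and 0.14 with housekeeping scaling); Acbd4, an acyl-CoA binding protein, had the smallest p (0.78, SE 0.17, edgeR adjusted p = 0.0509). Of 20 transcriptional regulators of these genes, 15 were positive, 8 had an unadjusted p under 0.05 and DESeq2 called 3 (median 0.25); Cebpa, a hepatocyte transcription factor, had the smallest p (0.67, SE 0.18, edgeR adjusted p = 0.0772). The 8 regulators became 1 with housekeeping scaling, 5 without liver 5.1 and 6 without 7.2 or 1.1. The 6 acyl-CoA genes became 3 with housekeeping scaling and 4 without 7.2 or 1.1. Of 18 genes for CD36 handling and fatty acid entry, 11 were positive, 8 had an unadjusted p under 0.05 and DESeq2 called 2 (median 0.25); Got2, also known as a plasma membrane fatty acid binding protein, had the smallest p (0.43, SE 0.13, edgeR adjusted p = 0.104). Those 8 became 2 without liver 7.2, 3 without 5.1, 4 without 1.1 and 5 without 7.1. With housekeeping scaling the medians of the regulator and CD36 lists turned to -0.13 and -0.09, as that scaling moved the median of all genes to -0.38.

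Of 22 PPAR-alpha target genes, which serve fatty acid oxidation, 11 were positive and 11 negative, 7 had an unadjusted p under 0.05 and DESeq2 called 4, 2 in each direction. Their median was -0.02 beside -0.02 over all genes, but it was 0.24 without liver 5.1, 0.14 without 3.2, -0.16 without 7.2 and -0.36 with housekeeping scaling, and the 7 became 4 without 7.2. Creb3l3, a liver transcription factor of triglyceride metabolism, had the smallest p (0.75, SE 0.21, edgeR adjusted p = 0.0891). Of 10 tested PPAR-gamma genes of fatty liver, 5 were positive and 5 negative, 2 had an unadjusted p under 0.05 and DESeq2 called 1 in each direction (median 0.04, from -0.15 without liver 7.2 to 0.25 without 7.1, and -0.33 with housekeeping scaling); Klf15, a transcription factor of lipid and amino acid metabolism, had the smallest p (0.85, SE 0.21, edgeR adjusted p = 0.0660).

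The genes whose log2 CPM, centered on each gene's mean over the 6 livers, ran closest to the 3 members with the smallest p were found as a description. For Cd36 they were Mmrn2 (root mean square difference 0.0267), Plekha2 (0.0498) and Sept8 (0.0566). For Slc27a2 they were Vwce (0.0709), Zfp467 (0.0740) and Cirbp (0.0817), and for Fabp1 they were Spp2 (0.0852), Prodh (0.139) and Serpina11 (0.143). Fabp1 ran from 10.6 to 12.6 log2 CPM over the 6 livers and Cd36 from 7.98 to 9.09. A wider spread can enlarge this difference, so its values do not rank the members.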

How the data were processed

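RNA from whole livers of 3 sgCtrl and 3 sgPrdx2 mice had been sequenced in bulk. The deposited table held raw read counts per gene, with no normalization. The processing notes of the submitters name HISAT2, HTSeq, DESeq2 and GRCm38. Versions, strand setting and annotation are not given in the sources used here. A second deposited table held the authors' own DESeq2 comparison (fold changes and p-values) and was not used.

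Genes were filtered with filterByExpr (minimum count 10), scaled by TMM and tested with edgeR 4.0.16 (R 4.3.3). Each SE was the log2 fold change over the root of its F statistic. The code was checked on simulated counts. Alternatives were RLE, upper-quartile and housekeeping scaling (Atp5b, Bag6, Cox8a, Hint1, Hnrnpa2b1 and Ndufa2, the reference genes of a liver signature assay of the study), DESeq2 1.42.0, 2 other filters and leaving out each liver. Marker ratios, marker sums without Ptprc, Spp1 or Alb and exon lengths were added after the data were seen. Transcript lengths came from GENCODE (GRCm38) and promoters from RefSeq (GRCm38.p6).

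The members and lists were chosen with earlier results of these data known. Named were the members, their family genes, Prdx2, up to 5 called genes or else the gene with the smallest p from each list, and for each of the 3 members with the smallest p the 3 most similar genes of at least 1 CPM. Lipe, a called marker, and Cidec, an adipocyte marker with a negative value, were named after their values were seen. Each library was 1 mouse. The labels give no batch; mice 7.1 and 7.2, and 1.1 and 1.3, share the first part of their numbers, whose meaning is not stated. With 3 livers per group, an exact permutation test of a single value could not go below p = 0.1, so none was run. Depth was high for most members; Vldlr (81 to 304 counts per liver) and Fabp7 (298 to 925) rested on the fewest counts.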

Additional observations from a re-analysis of the deposited data

How the results depend on the processing

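No paired analysis was possible because the groups share no replicate number. For the 10 members, edgeR called 0 higher and 0 lower. DESeq2 called 2 higher and 1 lower, no filter on low counts gave 1 and 1, and scaling to 6 housekeeping genes gave 3 lower (Cd36, Fabp5 and Lpl). Leaving out a liver, RLE or upper-quartile scaling and a filter of 10 counts in every liver gave 0 in each direction. Members with no overlap numbered 1 higher and 5 lower with housekeeping scaling and 2 lower with upper-quartile scaling. Over all genes the shares were then 3.95% higher and 44.3% lower with housekeeping and 16.1% and 18.1% with upper-quartile scaling. Over all genes, 305 were called higher and 262 lower; the counts were 70 and 919 with housekeeping scaling, 1165 and 887 with DESeq2, and 644 and 484 with no filter. They ranged from 0 to 324 higher and 0 to 295 lower when 1 liver was left out, with 0 in both directions without 5.1, 7.2, 1.1 or 1.3. The 6 housekeeping genes themselves had a median log2 fold change of 0.43 under TMM, and 0 were called by edgeR (3 with unadjusted p under 0.05, 3 called by DESeq2; Cox8a had the smallest p, 0.65, edgeR adjusted p = 0.0895).

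Signs turned for these genes. With housekeeping scaling the log2 fold change was -0.16 for Fabp2, -0.15 for Slc27a4, -0.38 for Prdx2 and -0.36 for Slc27a3. Prdx2 was -0.0046 with upper-quartile scaling and -0.0050 with no filter, and Slc27a3 was -0.012 with upper-quartile scaling, -0.0097 with no filter and -0.0029 with the stricter filter. Leaving out 1 liver gave -0.028 for Fabp2 without 3.2, 0.17 for Fabp7 without 7.2, 0.11 for Vldlr without 5.1, 0.070 for Vldlr without 3.2, -0.052 for Prdx2 without 5.1, -0.0081 for Prdx2 without 7.1, -0.17 for Prdx2 without 3.2, 0.11 for Fabp12 without 7.2, -0.016 for Slc27a3 without 5.1, -0.15 for Slc27a3 without 7.1, -0.033 for Slc27a3 without 3.2, 0.88 for Krt20 without 7.2. The cause was not tested. On all annotated exons together in place of the principal transcript, the sgCtrl levels were 8.80 CPM per kb for Fabp4, 25.9 for Fabp5, 178 for Slc27a2 and 52.1 for Lpl, which have longer gene models that way. Fabp1, Slc27a2, Fabp5 and Vldlr kept their ranks, while the order among Cd36, Fabp2 and Lpl and among Fabp4, Fabp7 and Slc27a4 changed.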
